A study of Mus musculus with 11 samples.

Results

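The genes described here are 10 transcriptional regulators of the neural crest, namely the SoxE factors Sox8, Sox9 and Sox10, the AP-2 factors Tfap2a, Tfap2b and Tfap2c, the forkhead factor Foxd3, the ETS factor Ets1, the LIM-only cofactor Lmo4 and the orphan nuclear receptor Nr2f1. They were taken by name as known crest specifiers, without a threshold on any value, and are 10 of 19938 genes with a symbol of their own on the array. Each was measured by 1 probe, and all 10 probes had a value on every array. The data are 11 Affymetrix mouse ST arrays of tissue from CD1 outbred mouse embryos at E8.5, grouped by tissue label into 3 arrays of neuroepithelium, 5 arrays of neural crest and 3 arrays of paraxial mesoderm. All groups came from flash-frozen embryos, the cells being taken from cryostat sections by laser capture and the RNA amplified before hybridisation. The labels name no treatment and no allele for any group. The series speaks of single cells, but no label ties an array to a cell number or to an embryo. The p-values below thus rest on the scatter among these arrays alone, which may be technical, and would be void if each array were 1 cell of an unnamed embryo.

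The neural crest arises at the border of the neural plate, leaves the epithelium and migrates through the head and trunk. In the usual scheme, signals first switch on border genes such as Msx1 and Pax3, these with AP-2 factors switch on crest specifiers such as Foxd3, Snai1, Ets1 and the SoxE genes, and the SoxE genes then carry the programme into pigment, glial, neuronal and cartilage derivatives. Tfap2a and Foxd3 are regarded as early members, Sox9 as a gene of premigratory crest and later cartilage, and Sox10 as a gene of early migrating crest that is kept in glia and melanocytes.

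The deposited values are ratios, each array being set against a reference of the probe that is close to its median over arrays. A probe that is silent everywhere and one that is equally active everywhere both lie near 1, so a ratio is no expression level and levels cannot be compared between genes. A gene is called high on an array where its ratio was at least 4, a limit taken over from an earlier look at these data. Of the 21789 probes with 1 gene symbol, 71.9% stayed within 2-fold of 1 on all 11 arrays.

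Promoters are shown for the 3 genes that were high on 3 crest arrays each, since these carry the pattern of shared arrays. Each window holds the 250 bases before an annotated start, read 5′ to 3′ on the gene's strand, from RefSeq on build GRCm38.p6. Windows were found for 6 of the 10 genes (10 windows), namely Tfap2a, Tfap2b, Foxd3, Lmo4, Nr2f1 and Sox8. Capitals mark any match to CANNTG (E-box, the letters bound by Snai and Twist factors), GCCNNNGGC (AP-2 factors), ACAAAG or ACAATG (Sox factors) or CCGGAA (ETS factors), searched on both strands.
Tfap2b, chr1:19211804-19212053, plus strand: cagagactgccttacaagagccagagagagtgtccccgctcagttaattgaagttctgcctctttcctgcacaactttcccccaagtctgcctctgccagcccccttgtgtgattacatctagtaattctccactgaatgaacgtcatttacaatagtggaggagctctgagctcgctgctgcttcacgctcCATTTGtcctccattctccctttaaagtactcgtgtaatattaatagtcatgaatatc
Lmo4, chr3:144205256-144205505, minus strand: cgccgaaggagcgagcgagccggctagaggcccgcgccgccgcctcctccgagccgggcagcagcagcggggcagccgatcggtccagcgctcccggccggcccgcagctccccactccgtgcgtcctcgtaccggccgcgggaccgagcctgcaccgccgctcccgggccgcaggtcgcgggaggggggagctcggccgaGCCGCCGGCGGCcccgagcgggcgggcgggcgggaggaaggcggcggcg
Nr2f1, chr13:78198874-78199123, minus strand: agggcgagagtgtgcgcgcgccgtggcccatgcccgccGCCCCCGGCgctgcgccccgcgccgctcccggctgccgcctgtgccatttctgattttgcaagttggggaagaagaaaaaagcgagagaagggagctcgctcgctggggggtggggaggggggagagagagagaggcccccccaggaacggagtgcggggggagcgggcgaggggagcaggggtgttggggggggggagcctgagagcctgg
The AP-2 letters occurred at 2 overlapping positions before Lmo4 and at 1 position before Nr2f1, and in 13.7% of all 32851 windows of this length. The Tfap2b window held 1 E-box, a motif present in 66.2% of all windows. The Sox letters (ACAAAG in 16.5% of all windows, ACAATG in 10.7%) and the ETS letters (12.0%) were in none of the 3 windows shown. The windows shown belong to the outermost start of Lmo4 and of Nr2f1. Of the windows at inner starts, not shown, the 1 of Nr2f1 held 1 ACAAAG match and 2 E-boxes, and the 2 of Lmo4, which overlap, each held 1 E-box and 1 AP-2 match. GC content was 46.4% for Tfap2b, 82.4% for Lmo4 and 72.0% for Nr2f1, against a median of 52.4%. A letter match is a description of the sequence and shows no binding.

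Of the 10 specifiers, 6 were high on at least 1 crest array (Sox9, Sox10, Tfap2b, Tfap2c, Lmo4 and Nr2f1), against 13.8% of all probes. They were not high together on every crest array: the number of high specifiers was 0, 3, 3, 1 and 6 on crest arrays 1 to 5. Outside the crest, 1 specifier was high on 1 array, Tfap2b on neuroepithelium array 3. Of all genes, 9.85% were high on at least 1 neuroepithelium array and 12.1% on at least 1 mesoderm array. All 30 values of the 10 genes on the paraxial mesoderm arrays lay within 2-fold of 1 (0.574 to 1.44), as did 28 of 30 on the neuroepithelium arrays. None of the 10 genes was low (a ratio of 0.25 or less) on any array, while 74 to 604 of all 21789 probes were low on each. The lowest value was 0.553, for Nr2f1 on neuroepithelium array 3. In limma, 0 of the 10 passed any of 4 comparisons after adjustment over all 21789 probes.

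**Figure D1:**
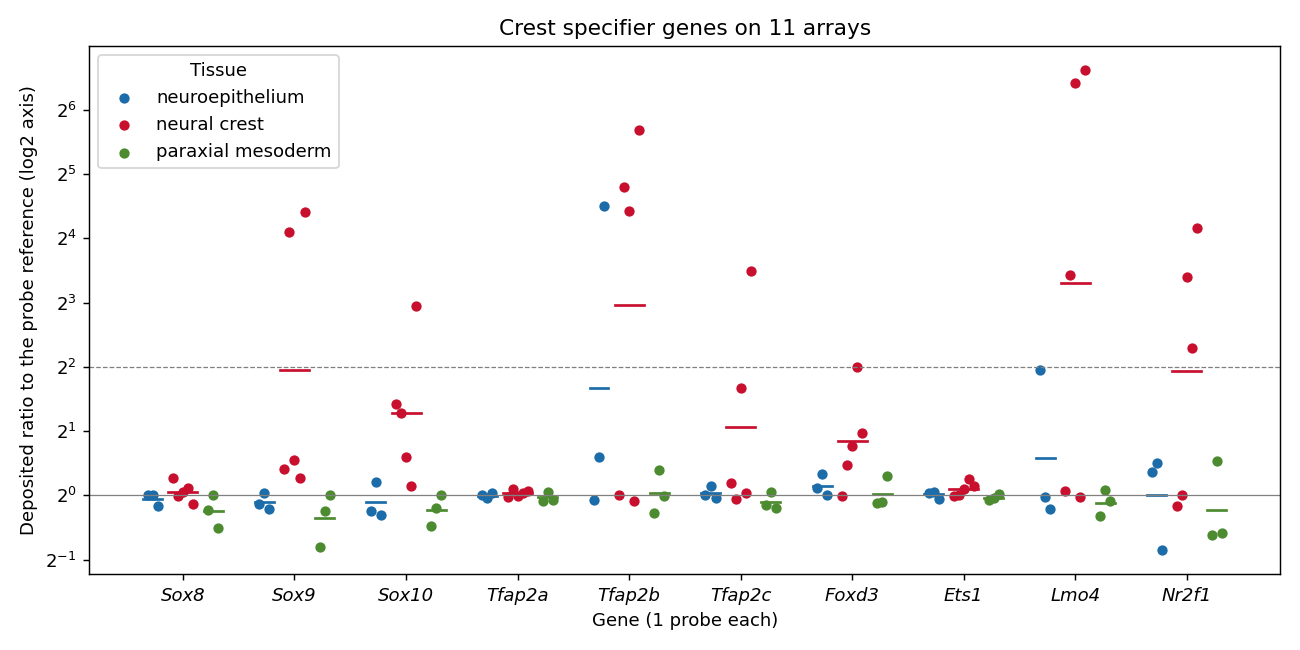
Deposited ratio of each specifier (log2 axis) on each of the 11 arrays, with points in array order within each tissue, short bars at the mean of the log2 ratios, a solid line at 1 and a dashed line at the limit of 4. Of the 14 values at or above the dashed line, 13 belong to crest arrays and 1 to neuroepithelium array 3 (Tfap2b).

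Among the SoxE genes, Sox9 and Sox10 stood above their reference on all 5 crest arrays. Sox9, which is needed for crest survival and later for cartilage, had ratios of 1.33, 17.2, 1.46, 1.21 and 21.3 on crest arrays 1 to 5. It lay at 0.914, 1.03 and 0.862 on the neuroepithelium arrays and at 0.574, 0.848 and 1 on the mesoderm arrays. Arrays 2 and 5 were far above the rest, and the remaining crest arrays were only slightly above the other tissues, yet no crest value overlapped with any of the 6 others. Of all probes 0.225% had all crest arrays above all arrays of both other tissues, and Sox9 was the only specifier to do so. Against neuroepithelium alone 1.41% of probes had no such overlap, and against mesoderm alone 1.4%, where Sox10 joined Sox9. Its log2 ratio averaged 1.95 ± 2.11 (SD, n = 5) in crest, a spread close to the difference from the mean of the other tissues (2.17, SE 0.87).

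Sox10, a regulator kept by migrating crest, glia and melanocytes, had crest ratios of 2.69, 2.42, 1.51, 1.10 and 7.67. Its values were 0.847, 1.16 and 0.812 in neuroepithelium and 0.715, 0.872 and 1 in mesoderm. It was high on array 5 alone, moderately raised on arrays 1 and 2, and within the range of neuroepithelium on array 4, so the crest arrays overlapped with neuroepithelium and not with mesoderm. Sox10 was the only specifier above 2 on crest array 1. The log2 difference from the mean of the other tissues was 1.44 (SE 0.45), and 1.03 without crest array 5. All 5 crest arrays were above 1 for Sox9 and Sox10, a pattern of 1.12% of probes.

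Sox8, the third SoxE gene and often redundant with the other members, did not follow them. It lay at 1.20, 0.997, 1.04, 1.08 and 0.907 in crest, at 1.00, 1.00 and 0.889 in neuroepithelium and at 0.855, 1 and 0.704 in mesoderm. Its crest values overlapped with both tissues, and crest array 5, where Sox9 and Sox10 peaked, held its lowest crest value. Its log2 difference from the mean of the other tissues was 0.21 (SE 0.10).

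The AP-2 genes split likewise. Tfap2b, an AP-2 factor of crest and later of kidney and sympathetic neurons, was high on crest arrays 2, 3 and 5 (27.9, 21.4 and 51.3) and flat on arrays 1 and 4 (1.00 and 0.936). It was 0.947, 1.51 and 22.6 on the neuroepithelium arrays and 0.828, 1.32 and 0.992 on the mesoderm arrays. Neuroepithelium array 3 thus reached the level of the high crest arrays, and the crest arrays were either clearly high or at the reference, with nothing between. The log2 difference from neuroepithelium was 1.29 (SE 1.62). Without neuroepithelium array 3 it was 2.70, and without any other single array of the 2 tissues 0.41 to 2.05. From mesoderm it was 2.92 (SE 1.62).

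Tfap2c, an AP-2 factor also known from trophoblast, germ cells and surface ectoderm, was high on crest array 5 (11.2), and array 3 followed below the limit (3.18). The remaining crest arrays lay at 1.14, 0.964 and 1.02, the neuroepithelium arrays at 1, 1.11 and 0.971 and the mesoderm arrays at 0.901, 1.04 and 0.873. The crest arrays therefore overlapped with both tissues, and 1 array carried most of the log2 difference of 1.09 (SE 0.62) from their mean, which was 0.49 without crest array 5 and 0.69 after quantile normalization. Of the 7 measured trophoblast and germ cell markers, 1 was high on a crest array (14.3% of all genes were), Pou5f1 on array 4 (32.6). None was on array 5, where 7.33% of all probes were high.

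Tfap2a, the AP-2 factor most often used to define the early crest, stayed at its reference throughout. It had 0.985, 1.07, 0.995, 1.02 and 1.05 in crest, 1, 0.975 and 1.02 in neuroepithelium and 0.945, 1.04 and 0.955 in mesoderm. The values of the 3 tissues overlapped, with a log2 difference of 0.05 (SE 0.04) between crest and the mean of the others. The ratios cannot tell whether Tfap2a was silent or alike on all arrays.

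Foxd3, a forkhead repressor of early crest, was raised to different degrees on 4 of 5 crest arrays. Its ratios were 0.995, 1.38, 1.70, 3.99 and 1.96 in crest, 1.08, 1.26 and 1 in neuroepithelium and 0.923, 0.935 and 1.23 in mesoderm. These 4 crest arrays lay above all 6 arrays of the other tissues, and array 1 lay among them. The value on array 4 missed the limit of 4 by the narrowest margin of any specifier, and it was the only array on which Foxd3 exceeded 2. The log2 difference from the mean of the other tissues was 0.75 (SE 0.32), and 0.46 without crest array 4.

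Ets1, an ETS factor of cranial crest delamination that endothelial cells also express, was flat. It lay at 0.989, 1, 1.07, 1.19 and 1.11 in crest, at 1.03, 1.04 and 0.966 in neuroepithelium and at 0.951, 0.969 and 1.01 in mesoderm. The log2 difference of 0.11 (SE 0.05) was the second smallest of the 10 genes, and the groups overlapped. None of 10 endothelial markers was high on any array, and neither were 78.3% of all genes. Sox8, Tfap2a and Ets1 were the 3 specifiers that stayed within 2-fold of 1 on all 11 arrays, as did 71.9% of all probes.

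Lmo4, a LIM-only protein that in chick acts as a cofactor of the Snai factors, had the widest range of the 10 genes. Its ratios were 1.05, 10.8, 85.6, 0.985 and 98.3 in crest, 3.88, 0.981 and 0.867 in neuroepithelium and 0.797, 1.06 and 0.942 in mesoderm. As for Tfap2b, arrays 2, 3 and 5 were high and arrays 1 and 4 were at the reference. Neuroepithelium array 1 lay just below the limit of 4 and above both flat crest arrays. The log2 difference from the mean of the other tissues was 3.07 (SE 1.37).

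Nr2f1, also called COUP-TFI, a nuclear receptor used in cranial crest and in the patterning of the brain, was high on crest arrays 3, 4 and 5 (10.5, 4.91 and 17.9) and not on arrays 1 and 2 (0.888 and 1). It lay at 1.28, 1.41 and 0.553 in neuroepithelium and at 0.655, 1.44 and 0.669 in mesoderm. The high crest arrays were above all others, and the 2 flat crest arrays were below some arrays of both tissues. Nr2f1 was the only specifier high on crest array 4, and its value there was the nearest to the limit among those above it. The log2 difference from the mean of the other tissues was 2.05 (SE 0.85).

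**Figure D2:**
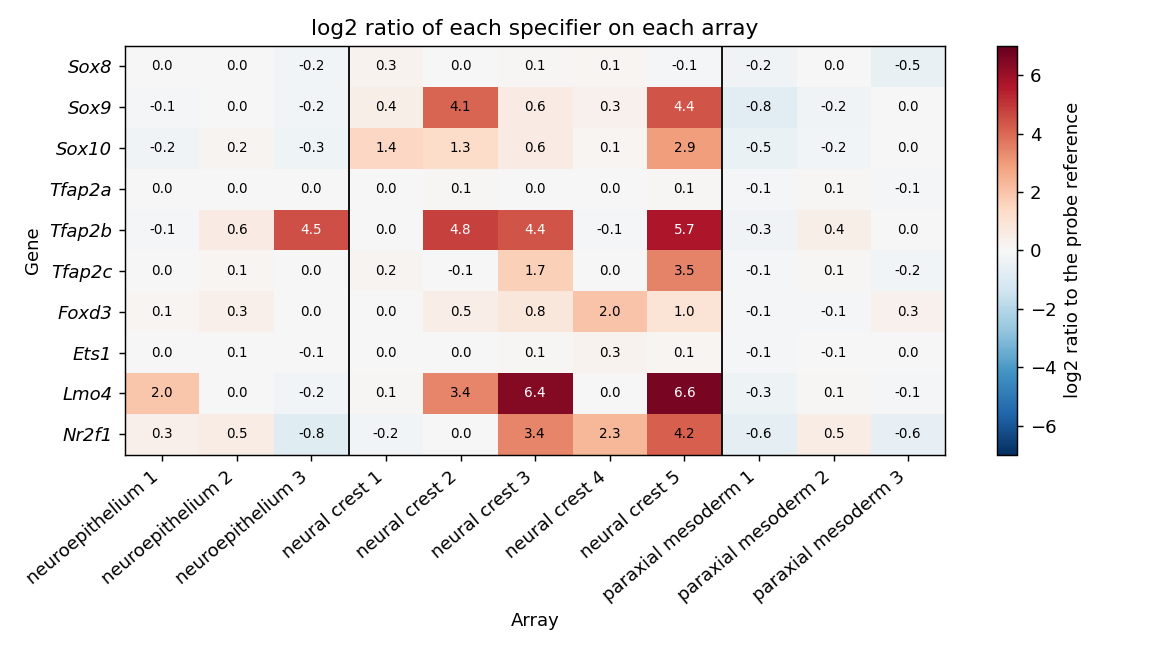
log2 ratio of each of the 10 specifiers (rows) on each of the 11 arrays (columns, divided by tissue), with each cell's value printed to 1 decimal and red for above the reference. Crest array 5 shows 6 genes past log2 2, whereas Sox8, Tfap2a and Ets1 are near 0 in every column.

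The specifiers that were high shared crest arrays in different combinations. Tfap2b and Lmo4 were high on the same 3 crest arrays, 2, 3 and 5. The combination of these arrays and no other crest array was found for 173 of the 21789 probes (0.794%), 15 of which were high on no array of the other tissues, Lmo4 among them. Sox9 was high on arrays 2 and 5 (a combination of 1.04% of probes), so both of its arrays were also high for Tfap2b and Lmo4. Nr2f1 was high on arrays 3, 4 and 5 (0.193% of probes) and shared arrays 3 and 5 with Tfap2b and Lmo4, but array 5 alone with Sox9. Sox10 and Tfap2c were high on array 5 alone, as were 3.07% of probes.

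Crest array 5 was thus the array on which all 6 met. Sox9, Sox10, Tfap2b, Tfap2c, Lmo4 and Nr2f1 had their highest ratio of all 11 arrays there. Of the 15 pairs that these 6 genes form, every pair shared array 5, and no pair shared array 1 or array 4. Arrays 2 and 5 were both high for 3 specifiers (2.40% of probes), and so were arrays 3 and 5 (2.40%). Arrays 2 and 3 were both high for 2 specifiers (1.95%). Foxd3 differed on array 4, which held its highest ratio (3.99) and the lowest crest ratios of Sox9, Sox10, Tfap2b and Lmo4. Its next highest ratio was on array 5 (1.96).

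The arrays differed in how many probes of any kind were high, and these shares moved with the specifier counts within the crest. Of all probes 1.97%, 5.60%, 5.13%, 2.00% and 7.33% were high on crest arrays 1 to 5, where 0, 3, 3, 1 and 6 of the 10 specifiers were. Outside the crest, mesoderm array 1 had the largest share of all 11 arrays (7.88%) and 0 high specifiers, and neuroepithelium array 3 had 5.51% and 1. Neuroepithelium arrays 1 and 2 had 3.52% and 2.85%, mesoderm arrays 2 and 3 had 3.9% and 1.83%, and none of these 4 arrays had a high specifier. For 10 genes, counts of 0 or 1 cannot be set apart from such shares. The part of these array-wide differences in the specifier pattern was not tested.

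**Figure D3:**
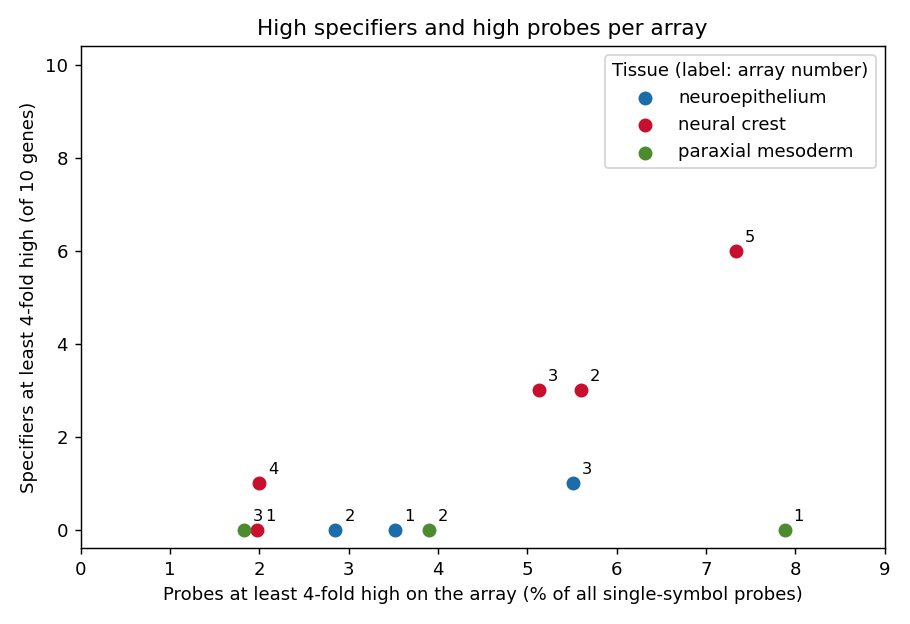
Number of the 10 specifiers at least 4-fold high on an array (vertical) against the share of all single-symbol probes that were (horizontal, %), 1 point per array with its number. Crest array 5 lies at 7.33% and 6 genes, and mesoderm array 1 at 7.88% and 0 genes.

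The comparisons between tissues asked whether the specifiers set the crest apart. All 10 genes had a positive log2 difference between crest and neuroepithelium (median 1.16, range 0.04 to 2.73) and between crest and mesoderm (median 1.33, range 0.06 to 3.41), while 49.7% and 50.6% of all probes did, with medians near 0 (-0.0005 and 0.0011). The size of the shift was uneven: 6 genes differed by at least 1 on the log2 scale in both comparisons, as did 5.48% and 5.62% of all probes, and 4 did not (Sox8, Tfap2a, Foxd3 and Ets1). Against the mean of both tissues the 10 differences were positive as well (47.7% of probes), and the same 6 genes reached 1 (4.59% of probes). These comparisons use the same crest arrays. Between mesoderm and neuroepithelium 0 of the 10 differences were positive (48.7% of probes), with a median of -0.16.

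None of the differences passed. Crest against neuroepithelium passed 0 of the 10 and 0.0275% of all probes, with limma adjusted p = 1.00 for each of the 10 genes. Crest against mesoderm passed 0 of the 10 and 0.00918% of probes, again at adjusted p = 1.00 in limma. Crest against the mean of both other tissues passed 0 of the 10 and 0.0184% of probes, at adjusted p = 0.966 for each in limma. Before adjustment, limma's p was under 0.05 with crest higher for Sox10 against neuroepithelium (1.03% of probes), for Sox8 and Sox10 against mesoderm (1.17%), and for Sox9, Sox10, Foxd3 and Nr2f1 against the mean of both (1.49%). Mesoderm against neuroepithelium passed 0 of the 10 and 0.0138% of probes, with 0 specifiers under 0.05 before adjustment. A gene that is high on some crest arrays and flat on the rest has a wide spread within its group, as the SD of 3.25 for Lmo4 and 2.78 for Tfap2b (log2 ratios, n = 5) shows beside 0.05 for Tfap2a.

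**Figure D4:**
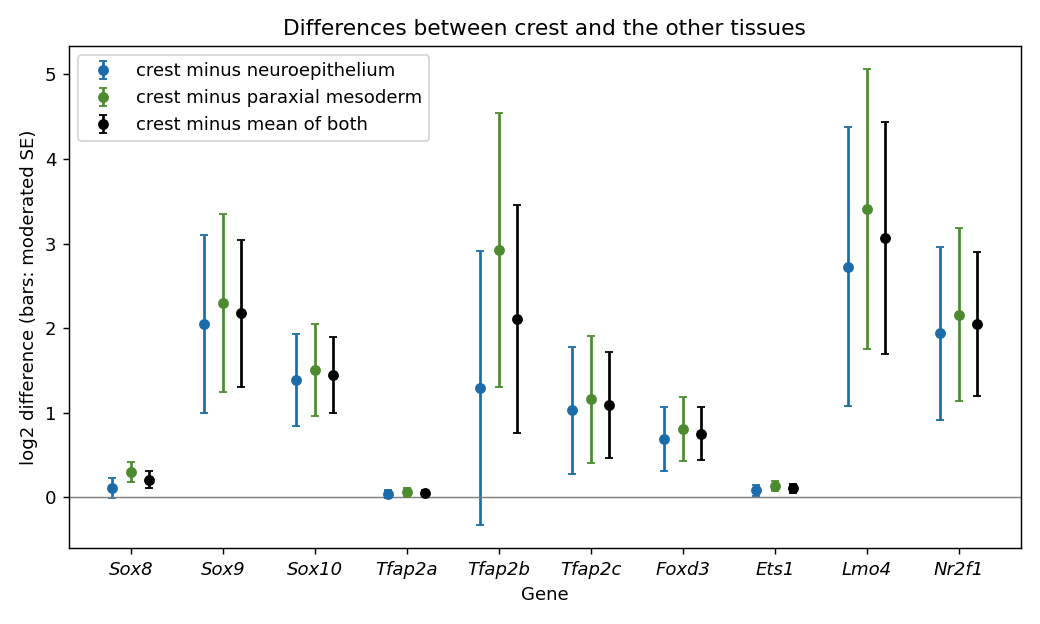
log2 difference of each specifier between crest and neuroepithelium (blue), crest and paraxial mesoderm (green) and crest and the mean of both (black), with bars of 1 moderated standard error on either side. All points lie above 0, from 0.04 for Tfap2a to 3.41 for Lmo4, and the genes with the largest differences have the longest bars.

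Pooled over 9 lists, other crest genes and relatives or partners of the specifiers were high about as often as genes in general. Of 80 measured genes in 9 lists (border specifiers, delamination factors, SoxE targets, migration receptors and relatives or partners of the specifiers), 9 (11.2%) were high on at least 1 crest array and 62 (77.5%) on no array of any tissue, against 14.3% and 78.3% of all 19938 genes. Among 12 border specifiers 1 was high on a crest array, the homeobox gene Msx1 on array 3 (32.3), which also reached 24.7, 46.1 and 7.97 on the 3 neuroepithelium arrays and 34.9 on mesoderm array 2. Of 11 delamination factors there were 3: the repressor Snai1 on all 5 arrays (41.2 to 82.1), the helix-loop-helix factor Twist1 on crest arrays 2 (8.79) and 5 (27.3), where Sox9 was also high, and on neuroepithelium array 2 (5.92), where it was not, and Cdh6, a cadherin of premigratory crest, on array 5 alone (8.51). Snai1 was the only gene of the 9 lists to pass any comparison (crest higher against both tissues and against their mean, 0 lower).

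Of the targets of SoxE factors and late crest genes, 0 of 11 measured genes were high on any array, among them the melanocyte factor Mitf, the receptors Ret, Erbb3 and Ednrb, and the cartilage genes Col2a1 and Acan. Their median log2 difference from the mean of the other tissues was 0.00. Of all genes 78.3% were high on no array, and a list of 11 genes is too short to set apart from that share. Of 15 migration receptors and related genes 1 was high on crest arrays, Crabp1, a retinoic acid binding protein, on arrays 2 (17.6) and 5 (5.49), and also on neuroepithelium arrays 1 (5.65) and 2 (13.0).

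Relatives and partners of the specifiers had patterns of their own. Kctd1, a repressor of AP-2 activity, was high on crest arrays 3 (19.3) and 5 (7.63), both also high for Tfap2b, but also on neuroepithelium arrays 1 to 3 (69.4, 68.3 and 18.5). Wwox, an oxidoreductase with WW domains, was high on crest array 2 alone (41.6), and so was Ldb2 (8.55), a binding partner of LIM proteins. Nr2f6, a relative of Nr2f1, was high on crest arrays 2 (17.8) and 5 (9.12) and on neuroepithelium array 3 (10.9), and thus shared only array 5 with Nr2f1. The closer relative Nr2f2, the AP-2 genes Tfap2d and Tfap2e, and the ETS genes Ets2, Fli1 and Erg were high on no array.

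Marker lists of other cells were too short to show whether a cell type was absent from the crest arrays. Of all genes, 14.3% were high on at least 1 crest array. High there were 1 of 13 markers of epithelium and surface ectoderm (Krt8 on array 3, 36.3), 2 of 8 neural progenitor markers (Nes on array 3, 8.48, and Fabp7 on arrays 4 and 5, 95.4 and 63.0), and 0 of 7 erythrocyte, 0 of 6 otic placode, 0 of 10 endothelial and 0 of 5 notochord markers. The mean log2 ratio of the epithelial markers ran from -0.20 to 0.39 over the crest arrays, 2.65 to 3.10 over the neuroepithelium arrays and -0.27 to 2.62 over the mesoderm arrays. For the neural progenitor markers it ran from -0.17 to 0.88, -0.11 to 0.01 and -0.22 to 0.28. For the labelled tissues, 0 of 8 neural progenitor markers were high on a neuroepithelium array (9.85% of all genes were) and 0 of 10 mesoderm markers on a mesoderm array (12.1% of all genes), counts too small to set apart from these shares, while 6, 7 and 7 of the 13 epithelial markers were high on neuroepithelium arrays 1 to 3. On mesoderm array 1, 6 of 7 erythrocyte markers were high, and on array 2, 6 of the 13 epithelial markers were. On mesoderm array 3, 1 epithelial marker and 2 of 5 notochord markers were high (Foxa2, 7.64, and Nog, 9.63, for notochord). The part of the epithelial genes in the flat specifiers of neuroepithelium was not tested, nor that of these other cells in the differences between crest and mesoderm.

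Genes most like each high specifier were ranked by Pearson's r of log2 ratios over the 11 arrays, among 5399 other probes that were at least 4-fold off their reference somewhere. With so many probes and 11 arrays, high values of r are easily found, and they are given only as a measure of likeness. Nearest to Sox9 were Gng2 (0.985), Abhd11 (0.983) and Exosc2 (0.982), and to Sox10 Srek1ip1 (0.950), Acot2 (0.937) and Tmeff1 (0.899). Nearest to Tfap2b were Cbr1 (0.985) and Cstb (0.937), both high on neuroepithelium array 3 as well, and Sirt2 (0.936), which was not. Tfap2c had Rilpl2 (0.991), Septin6 (0.991) and Shf (0.987), Lmo4 had Dph2 (0.955), Rab9 (0.944) and Fbxl12 (0.938), and Nr2f1 had Gng3 (0.895), Zfp444 (0.893) and Spred2 (0.891).

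No specifier was among the 3 probes nearest to another. The closest were Tfap2c to Nr2f1, at rank 14 (r = 0.855), and Sox9 to Sox10, also at rank 14 (r = 0.860). Although Tfap2b and Lmo4 were high on the same crest arrays, Lmo4 stood at rank 78 for Tfap2b (r = 0.750). They differed on neuroepithelium arrays 1 (0.947 for Tfap2b and 3.88 for Lmo4) and 3 (22.6 and 0.867) and in their ratios on the shared crest arrays.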

How the data were processed

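The deposited values are linear ratios, and how the authors scaled them is not recorded in the labels; RMA and the build mm9 are named without versions, per the submitters' processing notes. Of 28856 probes with values, 90.6% had a ratio of exactly 1 (within 1e-05) on exactly 1 of 8 arrays, and 3 or 4 of the remaining 7 lay under it, as a median over these arrays and 1 further value would give. Such ratios hold no depth or intensity, and the number of arrays limits the precision.

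The platform annotation gave 1 symbol to 21789 probes (1621 had several, 5446 none, all left out), checked by Entrez identifier against RefSeq (21698 matched, 0 changed). Log2 ratios of these probes on all 11 arrays were fitted with group means in limma 3.58.1 (lmFit, eBayes without an intensity trend, R 4.3.3). P-values were two-sided and adjusted by Benjamini-Hochberg over all these probes, at 0.05. The intensity trend is an alternative here because ratios have no intensity. Alternatives changed the variance model, probe set, filter, scaling, pseudocount (0.1 or 1), groups fitted and limit (2-fold or 8-fold), added a replicate block, or left out each array. The fit was tested on simulated data in which all crest arrays of a changed probe were raised alike. Such data cannot show how the fit treats genes that are high on only some crest arrays.

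All 10 specifiers were named, with the 3 probes most like each high one and the list genes high on a crest array. The genes and lists, written down with the tests and alternatives, were chosen with earlier results of these data known. Same-numbered arrays of different tissues did not deviate together (r = -0.145 to 0.0525 over 9 pairs, 0 above 0.1). Differently numbered arrays had r of -0.173 to 0.162. Deviations from means of 3 to 5 arrays cannot show whether arrays of 1 number share an embryo or a batch.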

Additional observations from a re-analysis of the deposited data

Results flagged for a closer look

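On crest array 5, Sox10 (7.67) and Tfap2c (11.2) stood apart from the other 4 crest arrays: the gap to the next array took 0.757 and 0.783 of the group's range, against a critical value of 0.710 in Dixon's test. On the log2 scale 0 of the 10 specifiers were set apart in this way (highest share 0.538). Chance sets apart about 1 group in 20, and 10 genes were examined.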

How the results depend on the processing

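The differences of the 10 specifiers between crest and neuroepithelium, mesoderm or their mean were recomputed 671 times under 23 settings. All 671 kept their positive sign and 0 passed, with limma adjusted p from 0.850 to 1.00. Many of these signs were fixed in advance. Settings that changed only the variance model, the probes fitted or arrays outside a comparison left its differences as they were. Their sizes moved more: a pseudocount of 1, which by construction shrinks log2 differences, took that from the mean of both tissues from 1.44 to 0.91 for Sox10 and from 0.75 to 0.47 for Foxd3, and quantile normalization took that of Tfap2c from 1.09 to 0.69. The fit of probes at least 2-fold off their reference holds no Sox8, Tfap2a or Ets1, and fitting only the groups compared does not apply to the mean of both tissues.

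The number of probes that passed was less stable. With an intensity trend it was 2 for crest against neuroepithelium (6 otherwise), 0 for crest against mesoderm (2) and 0 for crest against the mean (4). The prior variance of the trend fit ran from 0.00197 to 2.59e+15 over the probes, so these counts are not reliable. The number that passed was 10 for crest against neuroepithelium when only these groups were fitted. It was 1 for crest against mesoderm after quantile normalization, and 2 for crest against the mean among probes at least 2-fold off. Leaving out 1 array gave 5 to 20 for crest against neuroepithelium, 1 to 45 for crest against mesoderm, 3 to 40 for mesoderm against neuroepithelium (3 on all arrays) and 4 to 29 for crest against the mean. Mesoderm array 3 gave the last 3 maxima (45, 40 and 29), and neuroepithelium array 2 the first (20). The causes were not tested.

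At a limit of 2-fold, 1 specifier was high on neuroepithelium array 1 (Lmo4), 1 on crest array 1 (Sox10) and 2 on crest array 4. At 8-fold, 0 were on crest array 4. Quantile normalization gave 1 on neuroepithelium array 1, 1 on crest array 1 and 2 on crest array 4. Counts on the other arrays stayed within 1.5 times under these limits and scalings.

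With the replicate number as a block, the counts of probes that passed were 6, 3, 2 and 5 for crest against neuroepithelium, crest against mesoderm, mesoderm against neuroepithelium and crest against the mean, and 0 specifiers passed. Replicate numbers 4 and 5 occur in crest alone, so with the block the differences from crest rest on crest arrays 1 to 3. The difference from the mean of the other tissues was then lower by over 1.5 times for Foxd3 (0.75 to 0.32), Tfap2c (1.09 to 0.63), Nr2f1 (2.05 to 1.19) and Ets1 (0.11 to 0.04). This is the effect of leaving out crest arrays 4 and 5, and no measure of a batch.

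Depth is unknown, and a specifier that was silent or alike on all arrays cannot be seen in ratios.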
